A study of Vitis vinifera with 16 samples.

Results

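S-adenosylmethionine decarboxylase (SAMDC) and spermidine synthase catalyse successive steps of polyamine synthesis, and 1 transcript of each was followed here in berries of the grape Muscat Blanc a Petits Grains. The SAMDC transcript was XM_002282668.2, which the study names transcript variant 1 of SAMDC, and the spermidine synthase transcript was XM_002263726.2, which it names spermidine synthase-like. They are 2 of the 23984 RefSeq transcripts in the deposited tables, were picked by identifier, and both belong to the 19026 transcripts that were tested. The study lists both among hormone-related transcripts that differed between its regions, and that list was made on the samples used here, so the direction of their regional difference is not independent evidence.

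Polyamines are small positively charged molecules found in all plant cells, where they are known for their part in cell division, early fruit growth and responses to stress. SAMDC removes the carboxyl group from S-adenosylmethionine, and the product is the donor of aminopropyl groups for the pathway. Spermidine synthase moves such a group onto putrescine, which gives spermidine. S-adenosylmethionine is also the starting point of ethylene synthesis, so both routes draw on 1 pool, and SAMDC is commonly regarded as a controlling step on the polyamine side.

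The berries came from Gaotai (GT) in Gansu Province, in the dry northwest of China, and from Changli (CL) in Hebei Province, in the east, with its wet summers. They were collected at 4 stages of the Eichhorn-Lorenz scale, from E-L31 (pea-size berries) through E-L35 (veraison) and E-L36 to E-L38 (harvest), in the vintages 2011 and 2010. Each combination of stage and region was a group of 2 samples, 1 from each vintage, which gives 16 samples and 24 RNA libraries. Berries were deseeded, so the values refer to skin and flesh together. The vines were planted in 2001 in GT and in 2006 in CL, so region, vineyard and vine age cannot be told apart. RPKM is the read count divided by transcript length and by the mapped reads in the library, and the RPKM of a sample is the mean of its libraries. Sample totals ran from 3798921 counts, in GT at E-L31 in 2010, to 26627006 counts, in CL at E-L35 in 2010.

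The sample of GT at E-L31 in 2011 stood apart from the others of its stage. Over 214 transcripts whose mean log2(RPKM + 1) was at least 2 higher at E-L35 than at E-L31 in CL, its median log2(RPKM + 1) was 5.70, against 1.56 in the 2010 sample of GT and 2.59 and 2.55 in the samples of CL at this stage. At E-L35 the 4 samples had medians of 5.34 to 5.98, so in these transcripts that library resembled berries of the later stage. The edgeR ratios of both transcripts that rest on it are given with and without it. Means, SDs, pair counts, correlations and nearest transcripts all include it. Without it, GT at E-L31 rests on its 2010 sample alone, which had the fewest counts of all samples.

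SAMDC was the more abundant of both transcripts, and its reads need a word before its values. It had 87.9 to 341 RPKM (median 248), a 3.88-fold range over the 16 samples, and its rank by RPKM ran from 221 to 1530 of all 23984 transcripts. Of its 104566 assigned reads, 2725 (2.61%) were unique to it, and the share ran from 1.49 to 4.15% in the samples. The remaining reads also matched transcript variant 2 (XM_002282672.2), which the reference table places in the same gene, LOC100265287, or another transcript, and the authors divided such reads in proportion to the unique ones. Variant 2 had 3.74 to 23.9 RPKM and 0 to 15 unique reads in a sample, so how the reads were split between the variants rests on few reads. Variant 1 held 93.4 to 98.2% of the counts of both variants together. The values of variant 1 thus stand for nearly all reads of the pair, and summing the variants moved none of its log2 ratios by as much as the standard error.

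**Figure D1:**
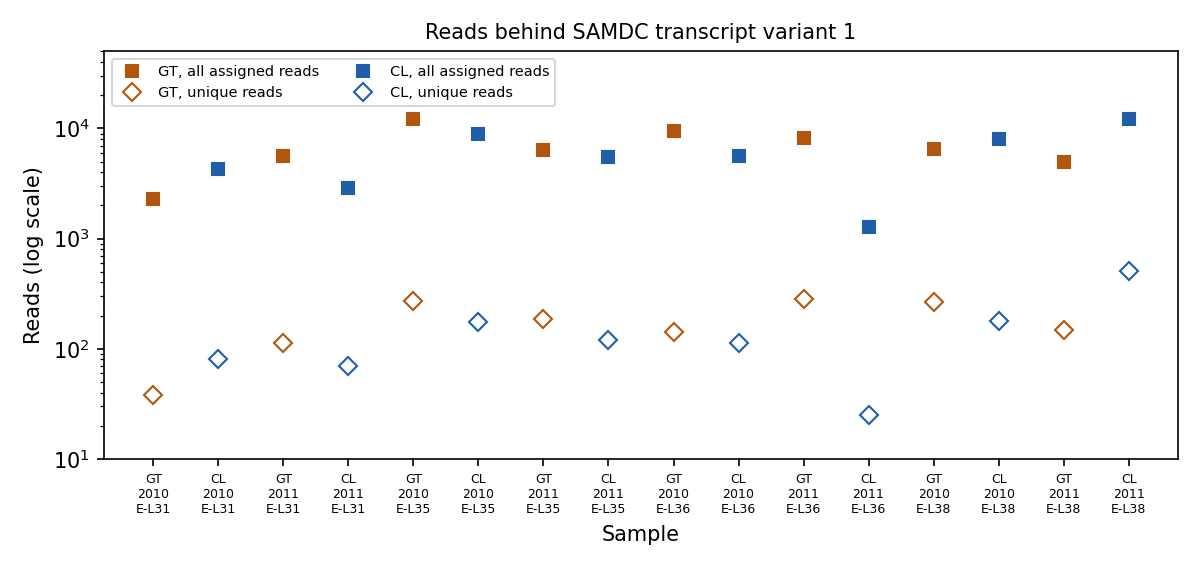
Reads behind SAMDC transcript variant 1 in each of the 16 samples, on a log axis, GT in orange and CL in blue. Filled squares are all assigned reads (1265 to 12314) and open diamonds are reads unique to the transcript (25 to 511); the unique reads lie far below the assigned reads in every sample.

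SAMDC stood higher in GT than in CL berries before and at veraison, and the values of the regions met in ripe berries. At E-L31, GT berries had 325 RPKM in 2010 and 294 RPKM in 2011, against 122 and 87.9 RPKM in CL berries. At E-L35, GT berries had 302 and 341 RPKM, against 180 and 142 RPKM in CL berries. Both GT samples lay above both CL samples at these stages, which was the case for 14.7% of all tested transcripts at E-L31 and for 42.1% at E-L35, so at E-L35 the separation is shared with a large part of the transcriptome.

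At E-L36, SAMDC had 289.8 RPKM in 2010 and 194.165 RPKM in 2011 in GT berries, against 194.514 and 144.8 RPKM in CL berries, so the lower GT sample and the higher CL sample were all but level. At E-L38, GT berries had 271 and 296 RPKM, against 225 and 310 RPKM in CL berries, and the ranges overlapped. SAMDC was higher in GT in 7 of the 8 pairs of samples of 1 stage and vintage, the exception being E-L38 in 2011, and 9.02% of the tested transcripts were higher in GT in at least 7 of the 8.

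**Figure D2:**
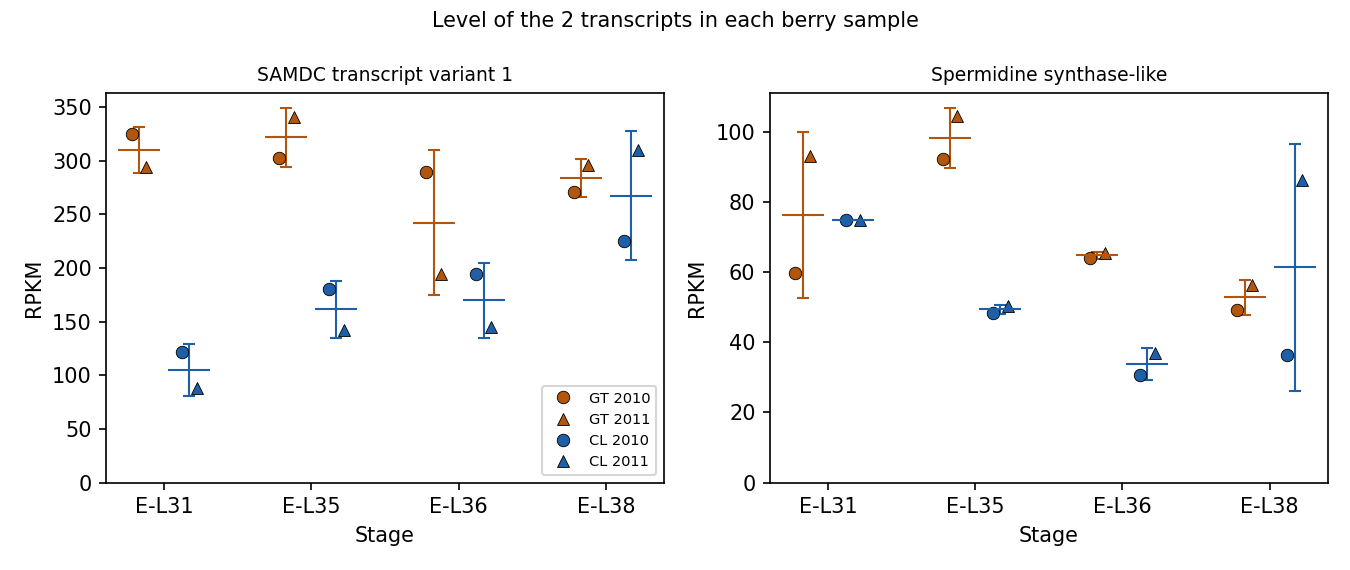
RPKM of SAMDC transcript variant 1 (left) and spermidine synthase-like (right) by stage, with GT in orange and CL in blue, circles for 2010 and triangles for 2011; horizontal lines are the mean of the 2 samples and bars are ± SD. SAMDC stays between 194 and 341 RPKM in GT and in CL lies at 87.9 to 122 RPKM at E-L31 and at 225 to 310 RPKM at E-L38; spermidine synthase is farthest apart at E-L35 and E-L36.

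Group means give the same picture. SAMDC averaged 310 ± 21.7 RPKM in GT and 105 ± 24.0 RPKM in CL at the first stage, E-L31, and 322 ± 27.5 RPKM in GT and 161 ± 26.8 RPKM in CL at E-L35 (SD, n = 2 each). It averaged 242 ± 67.6 RPKM in GT and 170 ± 35.1 RPKM in CL at E-L36, and 284 ± 17.7 RPKM in GT and 267 ± 60.1 RPKM in CL at E-L38 (SD, n = 2 each). Ordered by mean, the groups ran from GT at E-L35 through GT at E-L31, GT at E-L38, CL at E-L38, GT at E-L36, CL at E-L36 and CL at E-L35 to CL at E-L31. Of the neighbours in that order, CL at E-L35 and CL at E-L31 were the sole pair whose samples did not overlap. How many of all tested transcripts kept these groups apart was not counted.

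The log2 ratio of GT over CL, estimated by edgeR from the counts with the vintages as replicates, was 1.61 at E-L31 (SE 0.28, a 3.06-fold difference). Its unadjusted p was 0.000108, and its p adjusted over all transcripts by edgeR and Benjamini-Hochberg was 0.0936, so it missed the limit on adjusted p, 0.05, and was not called, although it was past the limit on size, a log2 ratio of 1 in either direction. No transcript was called in this comparison (0%), although 2654 had an unadjusted p below 0.05. DESeq2 called 462 transcripts and limma on log2(RPKM + 1) called 198, SAMDC among them in both, with log2 ratios of 1.61 (adjusted p = 9.15e-06) and 1.57 (adjusted p = 0.0214). The call at E-L31 changed with the settings, whereas the size of the difference lay between 1.43 and 1.81 under all 23 alternatives. Those that left out a sample of another stage could hardly move the size, and they gave 1.59 to 1.62. With all samples kept, the adjusted p ran from 9.15e-06 by DESeq2 to 0.210 by edgeR on unique reads. Without the 2011 sample of GT at E-L31 the edgeR ratio was 1.59 (adjusted p = 0.114), and without the 2010 sample of GT at E-L31 it was 1.64 (adjusted p = 0.0188), which is past both limits. In that fit GT at E-L31 is the sample that stood apart alone, its spread is taken from the other groups, and 749 transcripts were called, against 0 with all samples. SAMDC was thus high in the sample that stood apart and in its 2010 counterpart alike. Whether cells that carry this transcript were more frequent or held more of it cannot be told apart in whole berries.

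At the later stages the ratio of SAMDC was smaller. It was 0.74 at E-L35 (SE 0.27, adjusted p = 0.365 by edgeR), where 0% of transcripts were called by edgeR, 2176 had an unadjusted p below 0.05, DESeq2 called 148 and limma called 0. It was 0.43 at E-L36 (SE 0.27, adjusted p = 0.607 by edgeR), where 0.021% were called (4 transcripts, and 0 with the vintage as a replicate block), and 0.11 at E-L38 (SE 0.27, adjusted p = 0.968 by edgeR), where 0.00526% were called. The E-L36 estimate was 0.82 without the 2010 sample of CL at E-L36 and 0.12 without the 2011 sample. The E-L38 estimate was below its standard error, and without the 2010 sample of CL at E-L38 it turned to -0.06. On the RPKM scale the ratio at E-L35 includes a shift, since the median log2 ratio of all tested transcripts moved by 0.16 when RPKM replaced TMM-scaled counts.

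**Figure D3:**
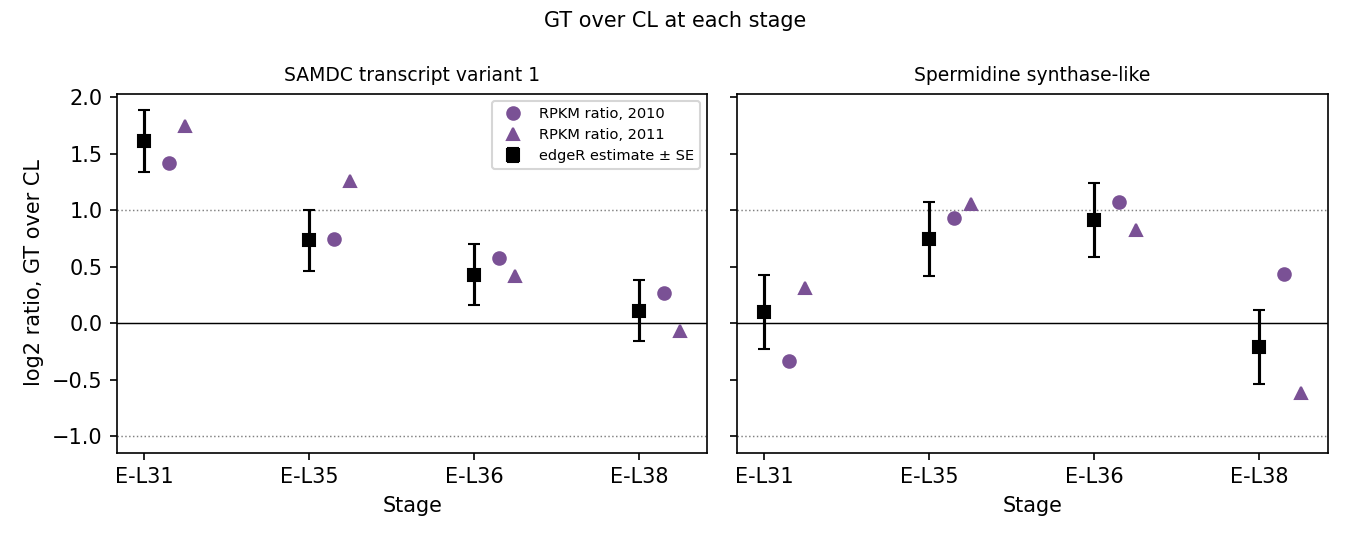
Log2 ratio of GT over CL at each stage for SAMDC transcript variant 1 (left) and spermidine synthase-like (right). Black squares are the edgeR estimates with bars of ± SE, purple circles and triangles are the RPKM ratios within 2010 and within 2011, and dotted lines mark the limit of an absolute log2 ratio of 1; the SAMDC estimates are 1.61, 0.74, 0.43 and 0.11 from E-L31 to E-L38, where the order of E-L35 and E-L36 turns without the 2010 sample of CL at E-L36 (0.82 at E-L36), and those of spermidine synthase are highest at E-L35 and E-L36.

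Averaged over the stages, the SAMDC ratio of GT over CL was 0.72 (SE 0.14, unadjusted p = 0.000229, adjusted p = 0.0576 by edgeR). In this comparison 15 transcripts (0.0788%) were called, and 0 with the vintage as a replicate block. The adjusted p of SAMDC was at most 0.05 under 5 of 23 alternatives, among them DESeq2 (7.74e-05) and limma (0.0491), within a range of 7.74e-05 to 0.184, but its log2 ratio stayed below the limit of 1 in all of them. Without the 2011 sample of GT at E-L31 the ratio was 0.72 (adjusted p = 0.0740 by edgeR). The ratio within E-L31 and E-L35 exceeded that within E-L36 and E-L38 by 0.90 on the log2 scale (SE 0.27, unadjusted p = 0.00636). Adjusted over all transcripts by edgeR this difference had a p of 0.397, and 0.042% of transcripts were called, so a difference of the regional gap between early and late stages did not pass the threshold. It was 0.89 (adjusted p = 0.242 by edgeR) without the sample that stood apart.

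Over the stages the RPKM of SAMDC rose in CL and fell slightly in the 2010 samples of GT. In 2010, CL berries had 122, 180, 194.514 and 225 RPKM from E-L31 to E-L38, and in 2011 they had 87.9, 142, 144.8 and 310 RPKM. The level was higher at each later stage in both vintages, which held for 1.44% of the tested transcripts. The 2011 values at E-L35 and E-L36, 142 and 144.8 RPKM, were practically equal, though. In GT it was lower at each later stage in 2010, with 325, 302, 289.8 and 271 RPKM, and had no single direction in 2011, with 294, 341, 194.165 and 296 RPKM. When RPKM replaced TMM-scaled counts, the median log2 ratio of all tested transcripts, averaged over the regions, moved by -0.18, -0.23 and 0.11. These are the steps into E-L35, E-L36 and E-L38, and the RPKM courses of both transcripts include such a shift.

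Averaged over the regions, none of the steps between stages was called for SAMDC. The log2 ratio of E-L35 over E-L31 was 0.58 (SE 0.19, adjusted p = 0.0868 by edgeR), in a comparison where 4.15% of the transcripts were called, 592 of 790 of them lower at E-L35, and it was 0.59 (adjusted p = 0.0675) without the sample that stood apart. DESeq2 gave SAMDC an adjusted p of 0.0347 for this step, on a ratio short of the limit on size. That of E-L36 over E-L35 was 0.15 (SE 0.19, adjusted p = 0.701 by edgeR) with 0.436% called, and it turned to -0.18 on the RPKM scale, where the median of all transcripts moved by -0.23. That of E-L38 over E-L36 was 0.24 (SE 0.19, adjusted p = 0.569 by edgeR) with 0.725% called, and it was 0.91 when unique reads alone were counted.

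Spermidine synthase followed another course, with the regions level at E-L31 and farthest apart at E-L35 and E-L36. Its 26150 reads were all unique, so its values carry none of the uncertainty of shared reads. It had 30.5 to 104 RPKM (median 61.9), a 3.42-fold range, and ranked from 1092 to 3108 by RPKM.

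At E-L31, spermidine synthase had 59.6 RPKM in 2010 and 93.0 RPKM in 2011 in GT berries, against 74.92 and 74.95 RPKM in CL berries. The GT samples lay on either side of the CL samples, and the higher of them was the sample that stood apart. At E-L35, GT berries had 92.3 and 104 RPKM, against 48.5 and 50.3 RPKM in CL berries. At E-L36, GT berries had 64.2 and 65.5 RPKM, against 30.5 and 36.9 RPKM in CL berries. Both GT samples lay above both CL samples at E-L35, as for 42.1% of transcripts, and at E-L36, as for 21.4%.

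At E-L38, spermidine synthase had 49.3 and 56.4 RPKM in GT berries, against 36.5 RPKM in 2010 and 86.3 RPKM in 2011 in CL berries. The GT samples fell between the CL samples, which differed by more than the regions did. Both libraries of the 2011 sample of CL gave the high value, 86.9 and 85.6 RPKM. Neither transcript had its groups apart at E-L38. There, 15.9% of all tested transcripts had both GT samples above both CL samples and 26.4% had both below. Spermidine synthase was higher in GT in 6 of 8 pairs, and 24% of the transcripts were so in at least 6.

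Spermidine synthase averaged 76.3 ± 23.6 RPKM in GT and 74.9 ± 0.0190 RPKM in CL at the first stage, E-L31, and 98.3 ± 8.57 RPKM in GT and 49.4 ± 1.29 RPKM in CL at E-L35 (SD, n = 2 each). It averaged 64.9 ± 0.983 RPKM in GT and 33.7 ± 4.51 RPKM in CL at E-L36, and 52.8 ± 5.0 RPKM in GT and 61.4 ± 35.2 RPKM in CL at E-L38 (SD, n = 2 each). By mean, the order was GT at E-L35, GT at E-L31, CL at E-L31, GT at E-L36, CL at E-L38, GT at E-L38, CL at E-L35 and CL at E-L36. CL at E-L31 and GT at E-L36 did not overlap, nor did CL at E-L35 and CL at E-L36, and all other neighbours did. Here too the share of all tested transcripts was not counted.

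For spermidine synthase, edgeR gave a log2 ratio of GT over CL of 0.75 at E-L35 (SE 0.33, adjusted p = 0.420 by edgeR) and 0.92 at E-L36 (SE 0.33, adjusted p = 0.411 by edgeR). It was 0.10 at E-L31 (SE 0.33, adjusted p = 0.929 by edgeR) and -0.21 at E-L38 (SE 0.33, adjusted p = 0.934 by edgeR). The E-L31 ratio was -0.38 without the 2011 sample of GT at that stage, and the E-L38 ratio was 0.46 without the 2011 sample of CL, so both signs rest on 1 sample. Averaged over the stages the ratio was 0.39 (SE 0.16, unadjusted p = 0.0366, adjusted p = 0.227 by edgeR), and 0.27 (adjusted p = 0.385 by edgeR) without the 2011 sample of GT at E-L31, with adjusted p of 0.0640 to 0.406 over the 22 alternatives. The ratio within E-L31 and E-L35 exceeded that of the later stages by 0.07 (SE 0.33, adjusted p = 0.992 by edgeR), and the difference was -0.17 without that sample.

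In CL, the RPKM of spermidine synthase was lower at each step up to E-L36 and higher again at E-L38 in both vintages, with 74.92, 48.5, 30.5 and 36.5 RPKM in 2010 and 74.95, 50.3, 36.9 and 86.3 RPKM in 2011. In GT it peaked at E-L35 in both vintages, with 59.6, 92.3, 64.2 and 49.3 RPKM in 2010 and 93.0, 104, 65.5 and 56.4 RPKM in 2011. Averaged over the regions, the steps had log2 ratios of 0.10 for E-L35 over E-L31, -0.26 for E-L36 over E-L35 and 0.11 for E-L38 over E-L36, each with an SE of 0.23 and adjusted p of 0.823, 0.564 and 0.868 by edgeR. The first of these was 0.34 (adjusted p = 0.300 by edgeR) without the 2011 sample of GT at E-L31 and -0.10 on the RPKM scale.

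Neither transcript was called between the vintages, but spermidine synthase leaned one way in every group. Spermidine synthase was higher in 2011 than in 2010 in 8 of 8 combinations of stage and region, which 0.836% of the tested transcripts showed, although in CL at E-L31 the values, 74.95 and 74.92 RPKM, were practically equal. Its log2 ratio of 2011 over 2010 was 0.32 (SE 0.14, unadjusted p = 0.0405, adjusted p = 0.680 by edgeR), and 0.25 without the 2011 sample of GT at E-L31. SAMDC was higher in 2011 in 3 of 8 combinations, with a log2 ratio of -0.15 (SE 0.13, adjusted p = 0.886 by edgeR) that was -0.18 without that sample and became 0.22 on unique reads. No transcript was called between the vintages by edgeR (0%), 1349 had an unadjusted p below 0.05, and DESeq2 called 22 and limma called 0.

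The vintages resembled each other across the 8 stage and region combinations for SAMDC, with a Pearson correlation of 0.873 between the log2(RPKM + 1) values of 2011 and 2010. For spermidine synthase it was 0.663, and the median of the tested transcripts was 0.580 (n = 8 combinations each). The SD of log2(RPKM + 1) over the 16 samples was 0.58 for SAMDC and 0.52 for spermidine synthase, above those of 71.7% and 65.8% of the tested transcripts, whose median was 0.39.

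Where a sample had a pair of libraries, these were close in most cases. The 2010 sample of GT at E-L38 was the exception, with 356 and 186 RPKM of SAMDC (1.92-fold) and 68.3 and 30.3 RPKM of spermidine synthase (2.25-fold). In the 2011 sample of GT at E-L38, SAMDC had 346 and 246 RPKM (1.41-fold), and all other pairs differed by 1.25-fold or less. The spread between libraries of 1 sample was thus widest in GT at E-L38.

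SAMDC and spermidine synthase had little of their course in common. Over the 16 samples, Pearson's r between SAMDC and spermidine synthase was 0.288 and Spearman's rho 0.397, with r = 0.332 in the 8 samples of GT and r = -0.165 in the 8 samples of CL. The samples share stage and library, so these are descriptions. The ratio of SAMDC to spermidine synthase RPKM ran from 2.96 to 5.50 in GT and from 1.17 to 6.37 in CL.

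The tables hold 2 further SAMDC transcripts, and all reads of each were unique. SAMDC proenzyme (XM_003631291.1) had 180 to 458 RPKM, the highest of the SAMDC transcripts by median. At E-L35 it had 458 and 402 RPKM in GT berries, against 224 and 180 RPKM in CL berries, and it was higher in GT in 7 of 8 pairs, with E-L38 in 2010 as the exception. Both GT samples lay above both CL samples at E-L35 for 42.1% of all tested transcripts. At least 7 of 8 pairs were higher in GT for 9.02% of them. Its log2 ratio of GT over CL averaged over the stages was 0.35 (SE 0.14, adjusted p = 0.209 by edgeR).

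SAMDC proenzyme-like (XM_002272143.2) had 27.5 to 225 RPKM and did not overlap between the regions at E-L35 and E-L36, where 42.1% and 21.4% of all tested transcripts had GT above CL, nor at E-L38, where it was lower in GT. At E-L35 it had 225 and 195 RPKM in GT berries, against 40.6 and 62.9 RPKM in CL berries. At E-L36 it had 58.9 and 72.3 RPKM in GT berries, against 27.6 and 27.5 RPKM in CL berries. At E-L38 it had 51.9 and 54.7 RPKM in GT berries, against 67.3 and 62.3 RPKM in CL berries, and 26.4% of the tested transcripts had both GT samples below both CL samples there. Between GT and CL its log2 ratio was 1.82 at E-L35 (SE 0.24, adjusted p = 0.126 by edgeR) and -0.24 at E-L38 (SE 0.24, adjusted p = 0.867 by edgeR). It was 0.79 averaged over the stages (SE 0.12, adjusted p = 0.0469 by edgeR), and the average is past the limit on p and short of the limit on size. Its adjusted p was 0.0536 with the vintage as a replicate block and at most 0.05 under 8 of 22 alternatives (4.88e-07 to 0.160). From E-L35 to E-L36 its log2 ratio was -0.99 (SE 0.17, adjusted p = 0.0457 by edgeR), also short of the limit on size, and the adjusted p was at most 0.05 under 11 of 22 alternatives (1.44e-05 to 0.250).

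**Figure D4:**
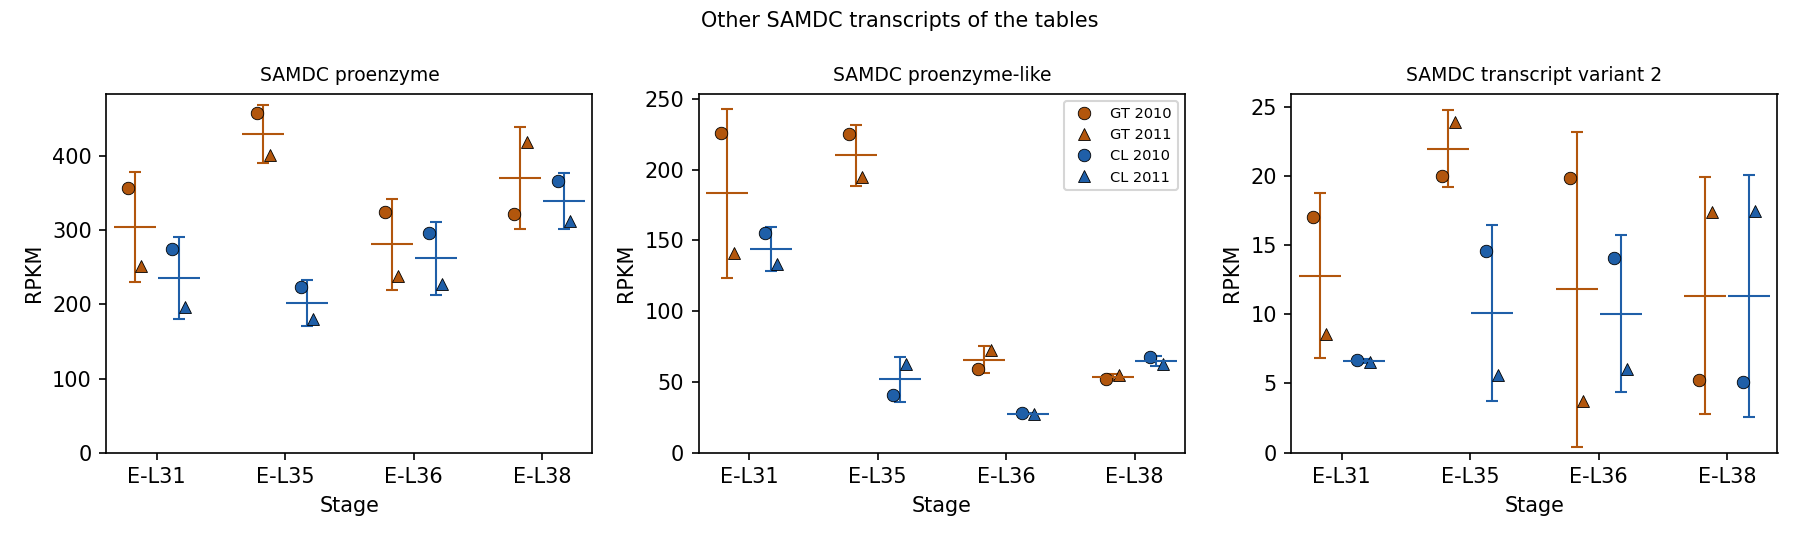
RPKM of the other SAMDC transcripts by stage, GT in orange and CL in blue, circles for 2010 and triangles for 2011, with the mean of the 2 samples as a line and bars of ± SD. SAMDC proenzyme and SAMDC proenzyme-like are farthest apart between the regions at E-L35, where GT has 402 RPKM or more of the proenzyme and 195 RPKM or more of proenzyme-like; variant 2 stays below 24 RPKM and scatters between the vintages.

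SAMDC proenzyme-like was the closer companion of spermidine synthase, with r = 0.772 over the 16 samples, 0.699 in GT and 0.753 in CL. SAMDC variant 1 was closer to the proenzyme, with r = 0.770 over the 16 samples, 0.680 in GT and 0.694 in CL. Summed over its 4 transcripts, SAMDC had 508 to 1005 RPKM in GT and 391 to 703 RPKM in CL. Variant 1 made up 30.1 to 42.3% of that sum in GT and 20.7 to 44.1% in CL, and its share was lowest in CL at E-L31, with 21.8% in 2010 and 20.7% in 2011.

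Around these steps, the list of 7 other transcripts comprised the 3 other SAMDC transcripts, homocysteine S-methyltransferase 2-like (XM_002283008.2), which supplies methionine, the 1-aminocyclopropane-1-carboxylate oxidases ACO1 (XM_002273394.2) and ACO1-like (XM_002279710.2), which make ethylene, and a probable aminotransferase TAT2-like (XM_002282628.2). Between the regions, none of the 7 was called at any stage or on average, in comparisons where 0 to 0.0788% of all tested transcripts were called. Their median log2 ratio of GT over CL, from E-L31 through E-L38 in order, was 0.41, 0.84, 0.23 and 0.13, where the medians of all tested transcripts were -0.0044, 0.0051, 0.012 and -0.059. Apart from the second variant, the list comes from transcripts chosen by the study for regional differences on these samples, so these medians describe the list alone.

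Homocysteine S-methyltransferase 2-like was higher in GT in 2 of 8 pairs, both at E-L38, while 80.6% of the tested transcripts were higher in at least 3. At E-L35 it had 140 and 69.3 RPKM in GT berries, against 324 and 251 RPKM in CL berries, with a log2 ratio of -1.73 (SE 0.41, adjusted p = 0.270 by edgeR). As for SAMDC, few of its reads were unique (2.51%).

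ACO1 was the sole transcript of the list that was called between stages, 1 of 7 at each of the first 2 steps, where 4.15% and 0.436% of all tested transcripts were called, 592 of 790 and 70 of 83 of them lower at the later stage. Its log2 ratio was -2.43 for E-L35 over E-L31 (SE 0.43, adjusted p = 0.0298 by edgeR) and -2.48 for E-L36 over E-L35 (SE 0.47, adjusted p = 0.0486 by edgeR), and its mean over the regions was 102, 17.9, 2.39 and 1.09 RPKM from E-L31 to E-L38. The later values rest on few reads, 18 to 65 a sample at E-L36 and 5 to 33 at E-L38. The adjusted p of the first step was at most 0.05 under 14 of 22 alternatives (6.5e-06 to 0.125), with -2.76 (adjusted p = 0.000598 by edgeR) without the sample that stood apart. That of the second step was so under 8 of 22 (4.12e-05 to 0.255) and 0.0531 with the vintage as a replicate block. SAMDC, on the other branch from S-adenosylmethionine, had means of 207, 241, 206 and 276 RPKM over the same stages.

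ACO1-like had 114 RPKM in the 2011 sample of GT at E-L31, against 0.798 RPKM in the 2010 sample of GT and 0.484 and 1.21 RPKM in CL at that stage. This was the sample that stood apart, and the 4 samples of E-L35 had 40.1 to 77.2 RPKM. ACO1-like itself meets the rule for the 214 transcripts by which that sample stood apart, so its value is no separate evidence. SAMDC showed no such step between the GT samples of E-L31.

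The transcripts most like SAMDC and spermidine synthase were found by Pearson's r of log2(RPKM + 1) over the 16 samples among those tested. For SAMDC they were XM_002285246.2 (r = 0.881), XM_002268330.1 (0.880), XM_003631557.1 (0.871), XM_003633743.1 (0.871) and XM_003634348.1 (0.870). For spermidine synthase they were XM_002274505.1 (r = 0.962), XM_003634124.1 (0.932), XM_002276073.1 (0.925), XM_003634331.1 (0.922) and XM_002277259.2 (0.912). The reference table gives these transcripts no product name. Spermidine synthase had the closer counterparts, and no SAMDC transcript was among the 5 nearest of either.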

How the data were processed

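Deseeded berries of 16 samples (4 stages, 2 regions, 2 vintages) were sequenced as 24 libraries. The authors mapped trimmed reads to RefSeq transcripts in CLC Genomics Workbench, where multiply mapping reads were split in proportion to unique ones. The authors deposited raw counts per transcript, of all assigned reads and of unique reads. The RPKM deposited by the authors is the count scaled to transcript length and library total, and recomputed counts differed from the deposited ones by 0 after rounding.

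Libraries of a sample were added up, and edgeR 4.0.16 in R 4.3.3 (glmQLFit, glmQLFTest, TMM; 8 groups, vintages as replicates) tested the 19026 transcripts that reached 10 counts in 2 or more samples, with Benjamini-Hochberg adjustment. TMM factors ran from 0.751 to 1.29 and library totals from 3798921 to 22917077, with 78.6 to 86.2% unique reads. Limits were an adjusted p of 0.05 and an absolute log2 ratio of 1. For regions and stages, p-values of the main fit measure the spread between the 2 vintages within groups. The vintages themselves were compared with the vintage as a term beside the 8 groups. Those p-values measure how unevenly the vintage shift appeared over the groups. As a replicate block, the vintage takes its shared shift out of the spread. The study took biological repeats within a vintage, but the sources used here do not tie the libraries to them. Alternatives were DESeq2 1.42.0, no filter, unique reads, limma 3.58.1 on log2(RPKM + 1), each library as its own value, the vintage as a replicate block, leaving out each of the 16 samples, and, chosen after seeing the data, the SAMDC variants summed. Python 3.11.15 made the summaries.

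The replicate numbers stand for the vintage in the sample titles, so the samples of 1 number share a year. The deviations of the 2011 samples from their group means correlated between the 28 pairs of groups by -0.376 to 0.337 (median 0.0085), with 7 over 0.1.

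Members and lists were chosen with earlier results of these data known. Named transcripts were both members, the other SAMDC transcripts and the related transcripts of the study's list of hormone genes. The reference table matched 14054 of 23984 identifiers and gave 0 product names for the list, so planned keyword lists, including markers of seed and green tissue, were not used, and the absence of seed was not tested. Its assembly differs from the source of the transcripts, so no positions are given. No sequence of the members was at hand here.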

Additional observations from a re-analysis of the deposited data

How the results depend on the processing

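Of the log2 ratios of both transcripts under the alternatives, 432 kept their direction and their side of the threshold, 4 passed the threshold and 12 changed sign. Many of the 432 come from fits without a sample outside the comparison, where the ratio could hardly move. The 4 were SAMDC for GT over CL at E-L31, with 1.61 by DESeq2, 1.57 by limma, 1.62 (adjusted p = 0.0108) by edgeR on single libraries, and 1.64 without the 2010 sample of GT at E-L31; leaving out samples in turn gave 1.44 to 1.81. Sign changes were -0.0089 by limma for spermidine synthase at E-L31 (leaving out samples -0.38 to 0.46), -0.10 by limma for its E-L35 over E-L31 (-0.082 to 0.34), -0.18 by limma for SAMDC E-L36 over E-L35 (-0.050 to 0.30) and 0.22 with unique reads for SAMDC 2011 over 2010. Leaving out samples also turned SAMDC at E-L38 (-0.062 to 0.31), and spermidine synthase at E-L38 (-0.67 to 0.46), for E-L38 over E-L36 (-0.23 to 0.33) and for the early minus late ratio (-0.26 to 0.30). The cause was not tested. Summing the SAMDC variants changed no call.

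Counts of transcripts called moved more. For GT over CL at E-L31, E-L35, E-L36, E-L38 and on average they were 462, 148, 136, 102 and 350 by DESeq2, and for the 3 steps between stages, early minus late and 2011 over 2010 they were 1661, 826, 627, 128 and 22. Taking libraries one by one they were 194, 668, 5, 328 and 443, then 2110, 1020, 726, 134 and 53, where the libraries of 1 sample count as replicates and may or may not come from separate berries; there SAMDC had adjusted p of 0.0186 at E-L35 and 0.00165 on average by edgeR. By limma they were 198, 0, 1, 5 and 15, then 1269, 360, 100, 7 and 0. Unique reads gave 2 at E-L36, 0 at E-L38 and 1 for 2011 over 2010, and no filter gave 129 for E-L36 over E-L35 and 1 for 2011 over 2010. With the vintage as a replicate block, 0 were called at E-L36 and 0 on average, SAMDC at E-L31 had 1.63 (adjusted p = 0.0984 by edgeR), and no call of SAMDC variant 1 or spermidine synthase changed. Leaving out samples gave 0 to 749, 0 to 4, 0 to 5, 0 to 7 and 0 to 468 for the regions, then 0 to 2598, 0 to 588, 2 to 366, 0 to 46 and 0 to 1. With unique reads, SAMDC rested on 25 to 511 reads a sample.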
